A study of Mus musculus with 6 samples.

Results

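The genes of glycolysis, of glucose and lactate transport and of the entry of pyruvate into mitochondria were compared between regulatory T cells (Tregs) that were made in culture with DEL-1-Fc and Tregs made with the Fc control. The group holds 31 genes, listed by symbol from glucose uptake to the fate of pyruvate, of the 39179 gene identifiers in each count file. All 31 passed the filter on low counts and were among the 14928 genes tested. Gene expression was measured by RNA sequencing of polyA-selected RNA in 6 libraries, 3 of cells cultured with DEL-1-Fc and 3 of cells cultured with Fc. DEL-1 is a secreted protein that binds integrins, and here it was fused to the Fc portion of an antibody, so that Fc alone is its control. Both groups started from naive splenic CD4+ cells of 6-week-old C57BL/6 mice with a wild-type genotype, which were differentiated for 3 days. Both received 5 ng/ml TGFβ1, 40 ng/ml IL-2, 1 µg/ml anti-CD28 and pre-coated anti-CD3 at 2 µg/ml, a unit whose first letter the labels garble. The labels do not say whether the 3 libraries of a group came from separate animals or cultures, so the p-values measure only the spread between these samples, which may be technical. The cells were a culture model, stimulated through the T cell receptor, and freshly isolated or unstimulated Tregs were not analysed here.

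Glycolysis splits glucose into pyruvate in the cytosol and yields ATP and NADH. Pyruvate is then either reduced to lactate by lactate dehydrogenase and exported through monocarboxylate transporters, or carried into mitochondria and oxidised by the pyruvate dehydrogenase complex, which pyruvate dehydrogenase kinases switch off. Activated T cells raise glucose uptake and glycolysis, and Tregs are known to depend less on glycolysis and more on mitochondrial oxidation than effector T cells do.

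Library totals lay between 33364166 and 58075983 counts for DEL-1-Fc and between 55318383 and 61967687 for Fc. DEL-1-Fc replicate 1 was the shallowest library and stood apart from the other 5. On the first principal component, which held 44% of the variance, it scored -47.7, against -14.3 and -12.8 for the other DEL-1-Fc libraries and 22.7 to 27.5 for the Fc libraries. On the second, with 23.3%, it scored 27.9, against -28.7 and -23.6 for the other DEL-1-Fc libraries and 4.38 to 11.5 for Fc. Results are therefore also given without it. All 7 T cell markers and all 5 Treg markers were detected in every library. Summed T cell marker levels were 2383.8 to 2714.1 CPM (counts scaled to the TMM-normalised library size) for DEL-1-Fc and 2251.1 to 2314.1 CPM for Fc, and summed Treg marker levels were 3600.9 to 4107.9 CPM for DEL-1-Fc and 3564.2 to 3952.2 CPM for Fc. Il2ra, with a mean of 2508 CPM, makes up most of the Treg sum, in which single markers moved apart. Foxp3, the transcription factor gene that defines Tregs, was called higher (log2 fold change 0.54, edgeR adjusted p = 0.0166) and Ctla4 lower (-0.3, edgeR adjusted p = 0.031), and the other 3 Treg markers were not called. Markers of other cells were low. The 5 B cell markers summed to at most 7.07 CPM in any library, the 6 macrophage or monocyte markers to at most 5.19 CPM, the 4 platelet markers to at most 1.29 CPM, the 4 erythroid markers to at most 0.23 CPM and the 4 neutrophil markers to at most 0.2 CPM. Pf4, Ppbp and Gp9 of the platelet list, Hbb-bs of the erythroid list and S100a8 of the neutrophil list were at 0 in every library. As with the T cell sums, some of these lists differed between the groups without overlap. Of the T cell markers, Trbc2 alone was called, as higher (log2 fold change 0.43, edgeR adjusted p = 0.00264). The 2 CD8 markers summed to 11.9 to 12.8 CPM for DEL-1-Fc and 10.1 to 10.4 CPM for Fc, and the 3 NK cell markers, of which Ncr1 was at 0 in every library, to 1.89 to 2.95 CPM for DEL-1-Fc and 1.29 to 1.38 CPM for Fc. The 5 dendritic cell markers, of which Siglech and Clec9a were at 0 in every library, summed to 6.46 to 7.04 CPM for DEL-1-Fc and 8.87 to 9.02 CPM for Fc, and the 5 stromal or endothelial markers to 74 to 85.6 CPM for DEL-1-Fc and 58.5 to 69 CPM for Fc. Pecam1, with a mean of 71.1 CPM, makes up most of the stromal or endothelial sum, and the other genes of that list had means of at most 0.334 CPM. Zbtb46 (7.61 CPM) makes up most of the dendritic cell sum and Klrc1 (1.88 CPM) most of the NK cell sum. Cd8a (log2 fold change 0.78, edgeR adjusted p = 0.00607), Klrc1 (0.9, 0.0139) and Pecam1 (0.36, 0.0237) were called higher. Zbtb46 was called lower (-0.42, edgeR adjusted p = 0.0192). Whether these markers came from other cells, and the part of such cells in the results below, was not tested. In bulk RNA, fewer cells that express a gene and less of its RNA per cell cannot be told apart.

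DEL-1-Fc cells had lower RNA levels of single genes at a few steps spread along the pathway, and most of the other genes were not called. Hk2, Pfkp, Aldoa, the glucose transporter gene Slc2a1, the lactate transporter gene Slc16a3 and Pdk3 fell, and Pdk2 rose. The calls of Slc2a1, Aldoa and Pdk3 were lost in several alternative fits. A gene is called here when its Benjamini-Hochberg adjusted p over all genes tested was under 0.05 in edgeR's quasi-likelihood test. By that rule 6 of 31 genes (19.4%) were called lower, beside 6.22% of all genes tested, and 1 of 31 (3.23%) was called higher, beside 6.4% of all genes tested. In either direction the rule called 22.6% of the 31 genes and 12.6% of all genes tested. The 24 genes not called include most of those with the highest levels. Groups did not overlap for 11 of the 31 genes. In 10 of these (32.3%) every DEL-1-Fc library lay below every Fc library, beside 17.5% of all genes tested, and in 1 (3.23%) every DEL-1-Fc library lay above, beside 17.3%. Of the 31 log2 fold changes, 23 were below 0 (74.2%, beside 48.6% of all genes tested), with a median of -0.128, beside 0.0079 for all genes tested. The 31 genes were chosen with earlier results of these data known, and no p-value is given for the list.

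**Figure D1:**
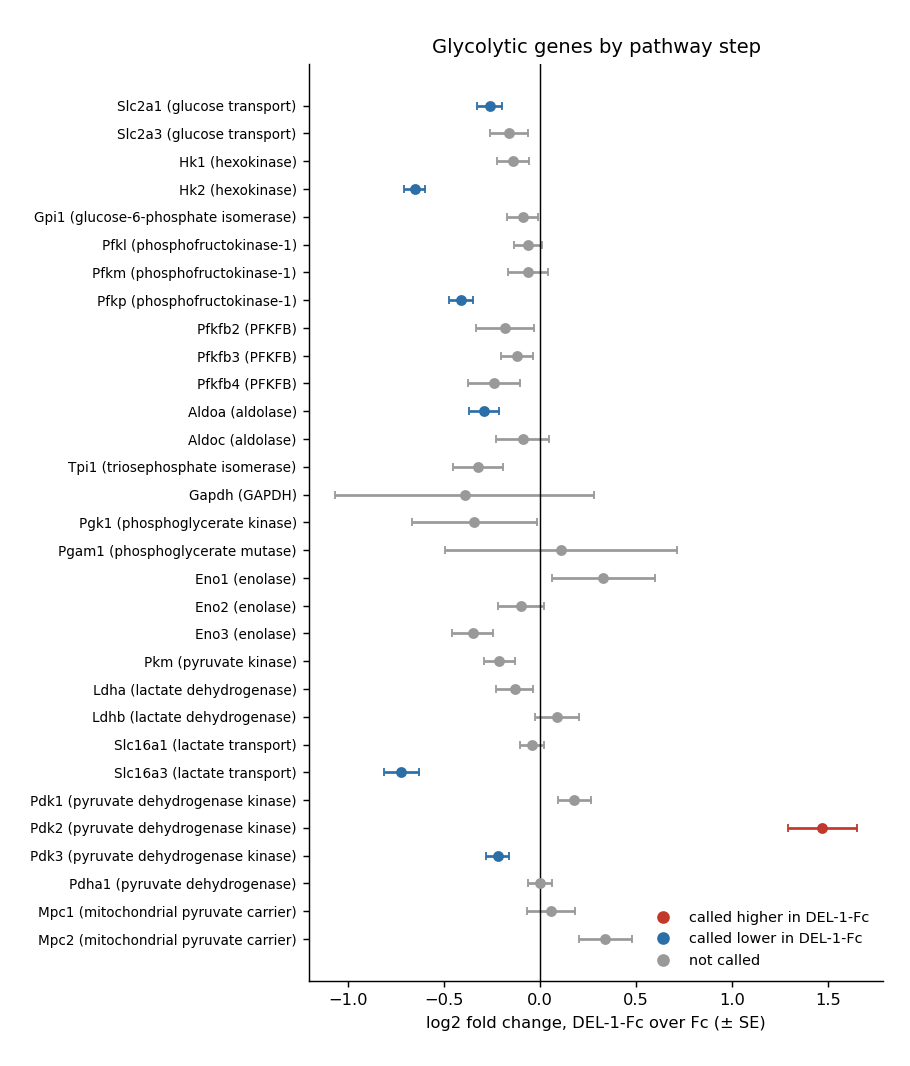
Log2 fold change of each gene, DEL-1-Fc over Fc, on the x axis, with genes in pathway order from glucose uptake at the top to mitochondrial pyruvate entry at the bottom. Points are edgeR estimates and bars their SE (n = 3 libraries per group), with the 6 genes called lower in blue, Pdk2, called higher, in red and the rest in grey. Bars are widest at Gapdh and Pgam1, and Pdk2 lies farthest from 0.

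Summed over the 31 genes, RNA made up 12810.9, 11912.7 and 12079.1 CPM in DEL-1-Fc replicates 1, 2 and 3, against 13445.4, 13290.6 and 14556.7 CPM in Fc replicates 1, 2 and 3. Every DEL-1-Fc library thus lay below every Fc library, with means of 12267.6 ± 477.9 CPM for DEL-1-Fc and 13764.2 ± 690.7 CPM for Fc (SD, n = 3 each). As shares of all counts these sums were 1.22% to 1.26% for DEL-1-Fc and 1.31% to 1.44% for Fc. Genes with high levels weigh most in such a sum. Pkm, Ldha, Aldoa and Eno1 had the highest mean CPM in both groups, and of these Aldoa alone was called. Means of Pkm were 2838.4 CPM for DEL-1-Fc and 3272.8 CPM for Fc, whereas those of Eno1 were 1235.8 CPM for DEL-1-Fc and 982.4 CPM for Fc. On the scale of CPM per kilobase of annotated exon, which allows levels of different genes to be compared, Ldha was highest, with 690.8 ± 81.8 for DEL-1-Fc and 755 ± 31 for Fc (SD, n = 3 each). Pkm followed with 567.6 ± 36.2 for DEL-1-Fc and 654.4 ± 32.4 for Fc, and Aldoa with 434.9 ± 33.2 for DEL-1-Fc and 532.2 ± 16.5 for Fc. Next came Pgk1 at 318.9 ± 138.1 for DEL-1-Fc and 402.9 ± 39.9 for Fc, and Tpi1 at 246.6 ± 44.8 for DEL-1-Fc and 307 ± 26.9 for Fc. The libraries of Ldha, Pkm and Aldoa did not overlap each other in either group. In the DEL-1-Fc libraries Pgk1 overlapped both Aldoa and Tpi1, so these neighbours in the order did not differ beyond their spread there. At the low end lay Pdk2, Pfkfb2, Pfkfb4, Aldoc and Eno2, whose means were between 0.741 and 1.69 for DEL-1-Fc and between 0.548 and 1.8 for Fc. The exon length used is that of all annotated exons of a gene together. For Gapdh it is 4133 bases although its longest coding transcript has 1420. For Eno1 it is 5379 against 2027 bases, and for Pfkp 13401 against 4145. Levels of such genes come out low on this scale, so the order of genes and the family shares depend on the length used.

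Glucose enters T cells through facilitative transporters, of which GLUT1, encoded by Slc2a1 (ENSMUSG00000028645, chr4:119108711-119137983, GRCm38), is the one raised on T cell activation. Slc2a1 fell with DEL-1-Fc. It had 159.7, 156.9 and 161.7 CPM in DEL-1-Fc replicates 1, 2 and 3, against 176.7, 201.6 and 193.2 CPM in Fc replicates 1, 2 and 3. The DEL-1-Fc libraries were close to each other and all lay below the lowest Fc library. Its log2 fold change was -0.26 (SE 0.0652, edgeR adjusted p = 0.0337), which is a fold of 0.837. The call was lost without DEL-1-Fc replicate 2 (edgeR adjusted p = 0.0677), DEL-1-Fc replicate 3 (0.0779), Fc replicate 2 (0.169) or Fc replicate 3 (0.139), and when libraries were scaled by their totals alone (0.0562), with the log2 fold change between -0.31 and -0.21 in every alternative. Gm12868, on the other strand, overlaps 2.99% of its exon bases. Slc2a3, which encodes the high-affinity transporter GLUT3, had 28.9, 31.4 and 31.1 CPM for DEL-1-Fc and 28.8, 37.6 and 35.6 CPM for Fc, so that the groups overlapped (log2 fold change -0.16, SE 0.101, edgeR adjusted p = 0.356). Per kilobase, Slc2a1 made up 91.5% ± 0.395 of the summed level of both transporter genes for DEL-1-Fc and 92.1% ± 0.539 for Fc (SD, n = 3 each).

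Hexokinases phosphorylate glucose and so trap it in the cell, and Hk2 (ENSMUSG00000000628, chr6:82725025-82774454) is the isoform whose RNA rises in activated T cells. Hk2 fell with DEL-1-Fc and had the smallest p of the 31 genes. Its levels were 111.8, 116.7 and 117.5 CPM in the DEL-1-Fc libraries, against 181.5, 178.4 and 181.8 CPM in the Fc libraries. Each group was tight, with a coefficient of variation of 2.67% for DEL-1-Fc and 1.06% for Fc, and a wide gap lay between them. The log2 fold change was -0.65 (SE 0.0546, edgeR adjusted p = 0.000192), a fold of 0.639, and it stayed between -0.66 and -0.62, and called, in all 17 alternatives that gave a new estimate. Hk1, the isoform found in most tissues, had 297.2, 258 and 238.4 CPM for DEL-1-Fc and 285.6, 302.6 and 286.8 CPM for Fc. DEL-1-Fc replicate 1 was among the Fc libraries in level and the other DEL-1-Fc libraries lay below all of them. Its log2 fold change of -0.14 (SE 0.0851) was not called (edgeR adjusted p = 0.326), whereas without DEL-1-Fc replicate 1 it was -0.23 and called lower (edgeR adjusted p = 0.0132). Gpi1, which encodes the isomerase that turns glucose phosphate into fructose phosphate, had 890.1, 751.8 and 757.8 CPM for DEL-1-Fc and 834, 867.5 and 860.2 CPM for Fc. DEL-1-Fc replicate 1 was the highest of all 6 libraries and the other DEL-1-Fc libraries were the lowest. The log2 fold change of -0.09 was not called (SE 0.0818, edgeR adjusted p = 0.5). Leaving that library out gave -0.18, called lower (edgeR adjusted p = 0.0361). Gm26762, on the other strand, overlaps 11.5% of the exon bases of Gpi1.

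Phosphofructokinase-1 catalyses the committed step of glycolysis, and its platelet-type subunit gene Pfkp (ENSMUSG00000021196, chr13:6579768-6648777) fell with DEL-1-Fc while the other subunit genes did not pass the test. Pfkp had 265.1, 267.3 and 274.9 CPM for DEL-1-Fc, against 333.9, 368.3 and 367.1 CPM for Fc. The highest DEL-1-Fc library lay well below the lowest Fc library, which was replicate 1. The log2 fold change was -0.41 (SE 0.0646, edgeR adjusted p = 0.00412), a fold of 0.755, and Pfkp was called in the same 17 alternatives with values between -0.45 and -0.38. Its fall is smaller than a log2 fold of 0.5, and it lost the call where that minimum was set. Pitrm1, on the other strand, overlaps 5.58% of the exon bases of Pfkp. Pfkl, the liver-type subunit gene, had 220.7, 190.7 and 198.2 CPM for DEL-1-Fc and 201.3, 212.2 and 222.3 CPM for Fc (log2 fold change -0.06, SE 0.0736). Pfkm, the muscle-type subunit gene, had 21.8, 16.6 and 18 CPM for DEL-1-Fc and 18.9, 19.3 and 20.3 CPM for Fc (log2 fold change -0.06, SE 0.104). For both genes the groups overlapped, with an edgeR adjusted p of 0.639 for Pfkl and 0.765 for Pfkm. Gm26513, on the same strand, overlaps 10.2% of the exon bases of Pfkm. The PFKFB enzymes make and break down the fructose bisphosphate that activates phosphofructokinase-1, a different isomer from the one that aldolase cleaves. None of the 3 PFKFB genes was called by edgeR, DESeq2 or limma-voom, and none had an unadjusted p under 0.05 in edgeR. Pfkfb3, the most abundant of them per kilobase, had 66.7, 83.1 and 74.1 CPM for DEL-1-Fc and 84.6, 79.6 and 79.2 CPM for Fc, with a log2 fold change of -0.12 (SE 0.0836). DEL-1-Fc replicate 2 lay within the Fc range and the other DEL-1-Fc libraries below it. Pfkfb4 did not overlap between the groups, with 3.08 to 4.05 CPM for DEL-1-Fc and 4.09 to 4.49 CPM for Fc, yet the gap was small and it was not called (log2 fold change -0.24, SE 0.135, edgeR adjusted p = 0.288). Pfkfb2 had 6.86 to 10.5 CPM for DEL-1-Fc and 9.99 to 10.9 CPM for Fc (log2 fold change -0.18, SE 0.152).

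**Figure D2:**
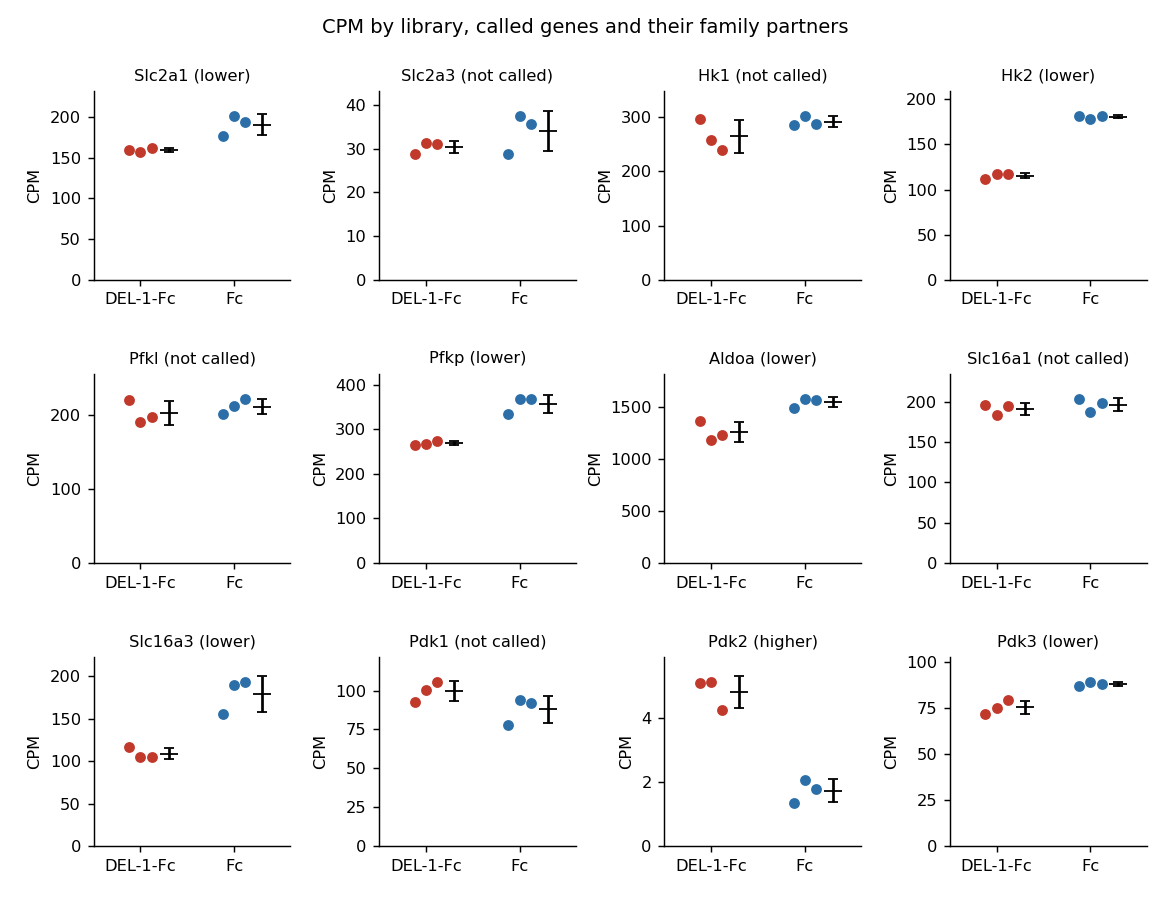
CPM (y axis, from 0) of each library for the 7 called genes and for other genes of the same families, with DEL-1-Fc left of Fc in each panel. Points are libraries in the order of replicates 1, 2 and 3, and the bar beside each group is its mean with the SD (n = 3). Hk2, Pfkp, Slc16a3 and Pdk2 show a clear gap between the groups, and Hk1, Pfkl and Slc16a1 overlap.

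Aldolase cleaves fructose bisphosphate into a pair of triose phosphates, and Aldoa (ENSMUSG00000030695, chr7:126795234-126800751) is the isoform of muscle and most cells. Aldoa fell with DEL-1-Fc to 1373.4, 1186 and 1238.4 CPM, against 1494.1, 1583.1 and 1570.3 CPM with Fc. DEL-1-Fc replicate 1 was the highest of its group and still lay below every Fc library. The log2 fold change was -0.29 (SE 0.0782, edgeR adjusted p = 0.0419), a fold of 0.817. This call was near the threshold. It was lost without DEL-1-Fc replicate 2 (edgeR adjusted p = 0.0922), DEL-1-Fc replicate 3 (0.116), Fc replicate 1 (0.118), Fc replicate 2 (0.171) or Fc replicate 3 (0.155), and also with no filter on low counts (0.0587) or without robust dispersion (0.0614). Without DEL-1-Fc replicate 1 the log2 fold change was -0.35 (edgeR adjusted p = 0.00198). Of the 31-base words in its transcript, 34.2% also occur in other genes, mostly pseudogenes, and the 1 copy with at least 5% of them held at most 0.0155% of the summed counts. Aldoc, the brain-type aldolase gene, had 6.12, 4.83 and 5.58 CPM for DEL-1-Fc and 5.02, 6.18 and 6.41 CPM for Fc, which overlapped (log2 fold change -0.09, SE 0.139). Tpi1, which encodes the isomerase that interconverts those trioses, had 791.9, 547.4 and 697.5 CPM for DEL-1-Fc and 808.9, 796.1 and 930.4 CPM for Fc. The highest DEL-1-Fc library almost reached the lowest Fc library, and Tpi1 was not called (log2 fold change -0.32, SE 0.13, edgeR adjusted p = 0.158).

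For the genes of the next 4 steps, libraries of the same group disagreed. Gapdh, often used as a reference gene, had 85.3, 355.8 and 392.2 CPM for DEL-1-Fc and 330.7, 259.7 and 501.8 CPM for Fc. Its coefficient of variation was 60.4% for DEL-1-Fc and 34.2% for Fc, and the log2 fold change of -0.39 had an SE of 0.673. Pgam1, phosphoglycerate mutase, had 86.5, 117 and 298.6 CPM for DEL-1-Fc and 202.6, 100.9 and 163 CPM for Fc (log2 fold change 0.11, SE 0.601). For both genes libraries of the same group differed more than the group means did, and edgeR called neither, with an adjusted p of 0.765 for Gapdh and 0.932 for Pgam1. Pgk1, phosphoglycerate kinase, had 1060.2, 627.7 and 459.2 CPM for DEL-1-Fc and 1002.8, 828.4 and 881 CPM for Fc. DEL-1-Fc replicate 1 was the highest of all 6 libraries and the other DEL-1-Fc libraries were the lowest, so the log2 fold change was -0.34 with all libraries (SE 0.324, edgeR adjusted p = 0.563) and -0.73 without that library (edgeR adjusted p = 0.0471). Eno1, the ubiquitous enolase gene, ran the other way, with 849, 1675 and 1183.5 CPM for DEL-1-Fc and 873.1, 893 and 1181.2 CPM for Fc (log2 fold change 0.33, SE 0.267, edgeR adjusted p = 0.482). Here DEL-1-Fc replicate 1 was the lowest of all 6 libraries.

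These genes also have near-identical copies in the mouse genome, whose part in the spread was not tested. The share of a transcript's 31-base words that occur in another gene was 84.1% for Gapdh, 77.2% for Eno1, 68.3% for Pgk1 and 42.1% for Pgam1. For Gapdh, 318 annotated pseudogenes hold such words, and how reads that match several places were counted is not given in the sources used here. Counts listed under 145 Gapdh copies made up 45.9%, 18.7% and 18.8% of the summed Gapdh and copy counts in DEL-1-Fc replicates 1, 2 and 3, against 23.5%, 51.7% and 16.9% in Fc replicates 1, 2 and 3. The share was highest in the library of each group with the lowest Gapdh level, but low Gapdh counts raise this share by themselves. Copy counts, not scaled to library size, were 2372, 4616 and 5391 in DEL-1-Fc replicates 1, 2 and 3. In Fc replicates 1, 2 and 3 they were 5771, 17050 and 5612. They were thus highest in the library with the lowest Gapdh level for Fc, and lowest in that library for DEL-1-Fc. With copies added, the levels were 157.6, 437.4 and 483.1 CPM for DEL-1-Fc and 432.4, 538 and 604 CPM for Fc, which is less uneven for Fc and still overlaps. Counts listed under copies were a smaller part of the sum for Pgk1 (at most 0.178% in any library), Eno1 (1.18%) and Pgam1 (6.53%). With copies added, DEL-1-Fc replicates 1, 2 and 3 still had 1062.1, 628.2 and 459.8 CPM of Pgk1. For Eno1 they had 859.2, 1678.6 and 1189.2 CPM, and for Pgam1 92.4, 119.5 and 302.4 CPM. Over the whole list, 12 genes shared at least 20% of their words and 1 of them, Aldoa, was called. The 19 genes that shared less held the other 6 calls, 5 lower and 1 higher. Of all genes tested, 12.6% were called in either direction, and whether shared sequence bears on the calls was not tested. The SE of the 19 had a median of 0.0924, beside 0.12 for the 12. Their ranges overlapped, with 0.0546 to 0.178 for the 19 and 0.0616 to 0.673 for the 12. Gpi1, Pfkfb2, Pkm, Ldha, Ldhb, Pdha1 and Mpc1 are the rest of the 12. Values of all 12 are uncertain to the extent that reads were split among copies or left uncounted. How many reads were left uncounted cannot be read from the counts under copies, however small these are. Counts listed under copies were at most 0.562% of the sum for Gpi1, 0.00302% for Pkm, 1.64% for Ldha and 0.307% for Ldhb in any library. For Mpc1 they were up to 18.7%.

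**Figure D3:**
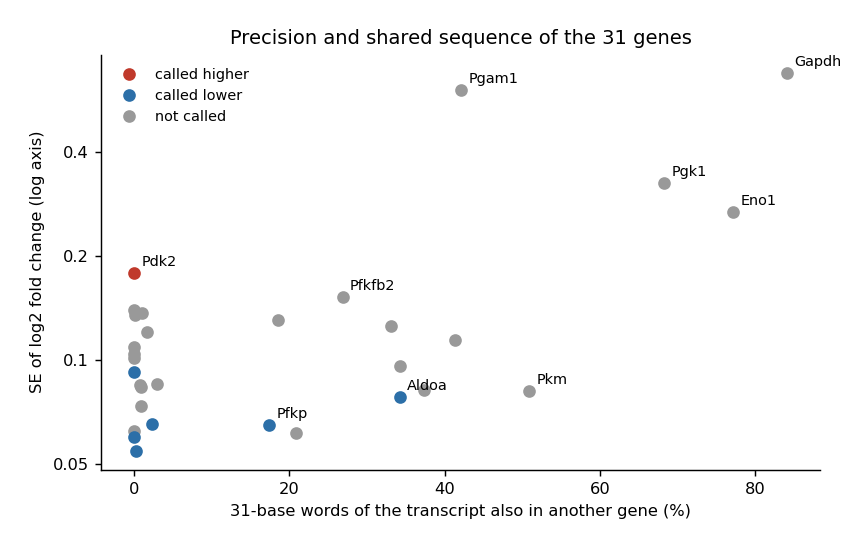
SE of the log2 fold change (y axis, log scale) against the percentage of each gene's 31-base transcript words that also occur in another gene (x axis). Each point is one of the 31 genes, in red where called higher, blue where called lower and grey where not called. Gapdh, Pgam1, Pgk1 and Eno1 have the largest SE and share 42.1% to 84.1% of their words. Under 20% is shared by 6 of the 7 called genes and by 19 of all 31.

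The other enolase genes share few words with other genes, 1.67% for Eno2 and 0% for Eno3. Eno3, the muscle-type gene, had 161.8, 116.8 and 137.5 CPM for DEL-1-Fc, against 170.5, 172.3 and 187.7 CPM for Fc. All DEL-1-Fc libraries were below all Fc libraries, with DEL-1-Fc replicate 1 nearest to them. Its log2 fold change of -0.35 (SE 0.109) just missed the threshold (edgeR adjusted p = 0.07). It passed without DEL-1-Fc replicate 1 (-0.48, edgeR adjusted p = 0.00277), with no filter on low counts (-0.36, edgeR adjusted p = 0.0425) and in DESeq2 (adjusted p = 0.02). Eno2, the neuronal enolase gene, was low and overlapped, at 4.37 to 4.51 CPM for DEL-1-Fc and 4.23 to 5.11 CPM for Fc.

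Pyruvate kinase makes pyruvate and ATP in the last step of glycolysis, and in T cells Pkm encodes it. Pkm had 3031.5, 2672.8 and 2810.8 CPM for DEL-1-Fc and 3209.4, 3152.3 and 3456.7 CPM for Fc. No DEL-1-Fc library reached the Fc libraries, but the gap was small beside the spread, and Pkm was not called by edgeR (log2 fold change -0.21, SE 0.0811, adjusted p = 0.142). It was called lower by DESeq2 (adjusted p = 0.0404) and by edgeR without DEL-1-Fc replicate 1 (-0.25, adjusted p = 0.0202). Gene counts do not separate the M1 and M2 forms, which are splice variants of Pkm. Ldha, which encodes the subunit that favours lactate formation, had 2574.8, 2037.8 and 2247.2 CPM for DEL-1-Fc and 2447.1, 2432.9 and 2617.1 CPM for Fc. DEL-1-Fc replicate 1 lay within the Fc range and the other DEL-1-Fc libraries below it (log2 fold change -0.13, SE 0.0961, edgeR adjusted p = 0.431). Dropping DEL-1-Fc replicate 1 gave -0.22 (edgeR adjusted p = 0.0413). Ldhb, the heart-type subunit gene, had 15.3, 12 and 12.9 CPM for DEL-1-Fc and 11.4, 12.6 and 13.7 CPM for Fc, which overlapped (log2 fold change 0.09, SE 0.114). Ldhb made up 1.22% ± 0.021 of the summed level of both lactate dehydrogenase genes per kilobase for DEL-1-Fc and 1.05% ± 0.0646 for Fc (SD, n = 3 each).

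Lactate leaves cells through monocarboxylate transporters. Slc16a3 (ENSMUSG00000025161, chr11:120948480-120960868) encodes MCT4, the form typical of cells that export much lactate, and it fell with DEL-1-Fc. Its levels were 117.2, 105.2 and 104.9 CPM for DEL-1-Fc, against 155.3, 189.9 and 193.1 CPM for Fc. Fc replicate 1 was the lowest Fc library and still lay above all DEL-1-Fc libraries. With a log2 fold change of -0.72 (SE 0.0924, edgeR adjusted p = 0.00136), a fold of 0.608, this was the deepest fall among the 6 genes called lower. It was called in the same 17 alternatives, between -0.81 and -0.66. The other transporter gene, Slc16a1, which encodes the widely expressed MCT1, had 196.7, 183.1 and 195 CPM for DEL-1-Fc and 203.7, 187.4 and 199 CPM for Fc. The groups overlapped nearly in full, and the log2 fold change of -0.04 had an SE of 0.0622 (edgeR adjusted p = 0.739).

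Isoform makeup was compared within each library as the share of a gene in the summed level of its family per kilobase of exon, which does not depend on scaling between libraries. There were 10 families, and 18 shares were tested together. Hk2 made up 35%, 39.3% and 41.3% of the hexokinase level in DEL-1-Fc replicates 1, 2 and 3, against 47.6%, 45.7% and 47.5% in Fc replicates 1, 2 and 3. The groups did not overlap, and the mean shares were 38.5% ± 3.24 for DEL-1-Fc and 47% ± 1.06 for Fc (SD, n = 3 each). Slc16a3 made up 33.1%, 32.4% and 30.9% of the monocarboxylate transporter level for DEL-1-Fc, against 38.8%, 45.8% and 44.7% for Fc. Pfkp made up 35.8% ± 2.19 of the phosphofructokinase-1 level for DEL-1-Fc and 41.4% ± 0.704 for Fc (SD, n = 3 each), and Pfkl 54.2% ± 1.32 for DEL-1-Fc and 49.5% ± 0.533 for Fc. Which of these genes is larger depends on the exon length used. Of summed CPM, not divided by length, Pfkp made up 54.8% for DEL-1-Fc and 60.6% for Fc, and Pfkl 41.3% for DEL-1-Fc and 36.1% for Fc. For Slc16a3, Pfkp and Pfkl, too, every library of one group lay on one side of every library of the other. With 3 libraries against 3, the exact permutation test cannot go below p = 0.1, which each of these shares reached (two-sided, adjusted p = 0.225 over the 18 shares). None of the 18 shares can therefore pass the threshold in this design, at an unadjusted p under 0.05 or after adjustment, and the shares are given as values. Aldoa made up 99.6% of its family for DEL-1-Fc and 99.7% for Fc, and Ldha 98.8% for DEL-1-Fc and 99% for Fc. For enolase, Eno3 made up 36.9%, 17.7% and 26.3% for DEL-1-Fc and 37.5%, 37.2% and 32.9% for Fc, so the groups overlapped through DEL-1-Fc replicate 1.

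**Figure D4:**
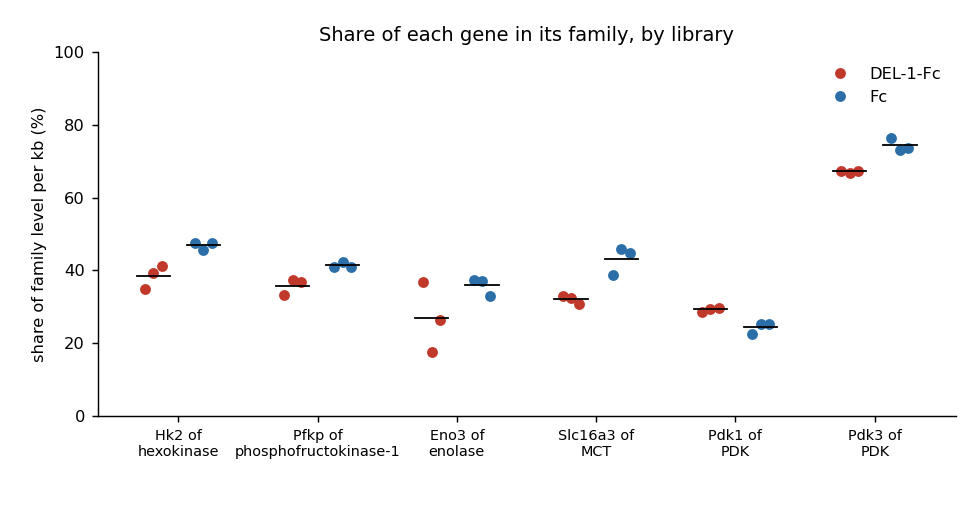
Share of a gene in the summed level of its family per kilobase of exon (y axis, percent, from 0 to 100), for 6 genes along the x axis, with DEL-1-Fc libraries in red left of Fc libraries in blue. Points are libraries and lines are group means (n = 3 each). Points of the groups separate for Hk2, Pfkp, Slc16a3, Pdk1 and Pdk3 and overlap for Eno3; MCT is monocarboxylate transporter and PDK pyruvate dehydrogenase kinase.

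Pyruvate dehydrogenase kinases phosphorylate and switch off the pyruvate dehydrogenase complex, and their genes moved in different directions. Pdk2 (ENSMUSG00000038967, chr11:95026258-95041354), the widely expressed isoform, rose with DEL-1-Fc, and it was the only one of the 31 genes called higher. It had 5.09, 5.13 and 4.25 CPM for DEL-1-Fc, against 1.34, 2.06 and 1.8 CPM for Fc, from 167, 290 and 252 counts for DEL-1-Fc and 76, 126 and 99 counts for Fc. Every DEL-1-Fc library lay above every Fc library, and the level was low in both groups. The log2 fold change was 1.47 (SE 0.178, edgeR adjusted p = 0.00102), a fold of 2.78. It was called in each of the 16 alternatives that kept it, between 1.32 and 1.62, and a filter of 5 CPM in 3 libraries left it out. Pdk3 (ENSMUSG00000035232, chrX:93764607-93832201) fell with DEL-1-Fc to 71.8, 75 and 79 CPM, against 86.9, 88.9 and 87.9 CPM with Fc. The groups did not overlap, and the change was small, with a log2 fold change of -0.22 (SE 0.0598, edgeR adjusted p = 0.0416). The Pdk3 call was lost without DEL-1-Fc replicate 2 (edgeR adjusted p = 0.0712), Fc replicate 1 (0.139), Fc replicate 2 (0.174) or Fc replicate 3 (0.152), with library totals alone (0.0906) and after thinning to the smallest library (0.0562). Pdk1, the isoform known as a target of the hypoxia-inducible factor HIF-1, had 92.9, 100.6 and 105.4 CPM for DEL-1-Fc and 77.9, 93.8 and 91.8 CPM for Fc. Only DEL-1-Fc replicate 1 lay within the Fc range, and Pdk1 was not called (log2 fold change 0.18, SE 0.0847, edgeR adjusted p = 0.205). Within the family, per kilobase, Pdk1 made up 29.3% ± 0.492 for DEL-1-Fc and 24.4% ± 1.6 for Fc, Pdk2 3.5% ± 0.496 for DEL-1-Fc and 1.18% ± 0.211 for Fc, and Pdk3 67.2% ± 0.362 for DEL-1-Fc and 74.4% ± 1.8 for Fc (SD, n = 3 each). None of these shares overlapped between the groups (exact permutation p = 0.1, the smallest possible, adjusted p = 0.225). Pdk3 thus held the largest share in both groups on this scale.

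The promoters of the 3 kinase genes and of Hk2 are shown because these genes differ most within a family or had the smallest p. Each window runs from 250 bases before to 50 bases after the RefSeq start site (GRCm38.p6), 5′ to 3′ on the strand of the gene. Capitals mark the core of the hypoxia response element, ACGTG or GCGTG on either strand, and the E-box CACGTG, which contains ACGTG on both strands and so counts as 2 cores. The Pdk1 window (chr2:71872974-71873273, plus strand) holds 2 cores, that of Pdk2 (chr11:95041322-95041621, minus strand) holds the E-box alone, that of Pdk3 (chrX:93832101-93832400, minus strand) holds 4 cores, and that of Hk2 (chr6:82774405-82774704, minus strand) holds 2. The table has another window for Pdk1 (chr2:71874654-71874953) and for Pdk2 (chr11:95040826-95041125), and each of these holds 0 cores and no E-box.
Pdk1: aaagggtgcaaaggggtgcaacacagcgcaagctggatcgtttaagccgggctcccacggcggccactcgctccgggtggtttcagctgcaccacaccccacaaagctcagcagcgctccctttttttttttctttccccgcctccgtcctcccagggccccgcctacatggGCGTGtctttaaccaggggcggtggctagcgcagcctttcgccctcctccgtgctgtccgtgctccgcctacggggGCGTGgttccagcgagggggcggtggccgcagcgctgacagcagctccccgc
Pdk2: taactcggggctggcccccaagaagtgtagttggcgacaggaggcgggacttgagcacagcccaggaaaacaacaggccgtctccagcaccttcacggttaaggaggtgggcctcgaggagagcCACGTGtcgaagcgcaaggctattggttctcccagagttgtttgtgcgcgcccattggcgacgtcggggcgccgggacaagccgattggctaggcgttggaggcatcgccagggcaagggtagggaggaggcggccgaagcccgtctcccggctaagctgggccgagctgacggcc
Pdk3: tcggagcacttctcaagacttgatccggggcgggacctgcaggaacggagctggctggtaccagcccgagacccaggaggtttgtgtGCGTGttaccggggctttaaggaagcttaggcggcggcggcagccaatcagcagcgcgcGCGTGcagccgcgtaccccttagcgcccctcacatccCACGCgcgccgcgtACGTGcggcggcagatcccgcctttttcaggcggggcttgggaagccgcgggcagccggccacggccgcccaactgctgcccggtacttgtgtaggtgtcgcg
Hk2: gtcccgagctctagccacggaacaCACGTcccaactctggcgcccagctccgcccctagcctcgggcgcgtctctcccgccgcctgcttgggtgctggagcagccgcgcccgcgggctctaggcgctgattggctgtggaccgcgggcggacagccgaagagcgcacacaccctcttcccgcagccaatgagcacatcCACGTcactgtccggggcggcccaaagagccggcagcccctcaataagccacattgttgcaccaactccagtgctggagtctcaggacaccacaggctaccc

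RefSeq windows were found for 30 of the 31 genes, 47 windows in all, and Slc2a3 was not matched. A core stood in 37 of the 47 windows (78.7%), beside 61.4% of the windows of genes tested here and 43.8% of all 32851 promoter windows in the table. The E-box stood in 6 of the 47 (12.8%), beside 9.9% of the windows of genes tested and 7.15% of all windows. Of the 8 windows of the 6 genes called lower, 7 held a core and 0 held the E-box. A match to these letters is a description of the sequence and does not mark a bound site.

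The remaining genes govern entry of pyruvate into mitochondria and its oxidation. Pdha1, which encodes the catalytic subunit that the kinases phosphorylate, had 152.3, 152.8 and 167.2 CPM for DEL-1-Fc and 157.3, 153.6 and 161.3 CPM for Fc. The groups overlapped, and the log2 fold change was 0.00 with an SE of 0.0616. Map3k15, on the other strand, overlaps 16.1% of the exon bases of Pdha1. Mpc1 and Mpc2 encode the subunits of the mitochondrial pyruvate carrier. Mpc1 had 33.5, 27.2 and 26.9 CPM for DEL-1-Fc and 24.5, 32.9 and 26.5 CPM for Fc (log2 fold change 0.06, SE 0.125), and 23.1% of its exon bases overlap 4930506C21Rik on the other strand. Mpc2 had 29.2, 19.4 and 22.9 CPM for DEL-1-Fc and 18.4, 17.8 and 20.2 CPM for Fc. DEL-1-Fc replicate 2 lay within the Fc range and the other DEL-1-Fc libraries above it. Mpc2 was not called (log2 fold change 0.34, SE 0.137, edgeR adjusted p = 0.151). It was called higher when DEL-1-Fc replicate 2 was left out (0.47, edgeR adjusted p = 0.035).

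Leaving out DEL-1-Fc replicate 1, the library that stood apart, raised the number of calls. Without it 12 of the 31 genes were called lower (38.7%), beside 9.98% of all genes tested, and 1 was called higher, beside 9.76%. The 6 genes called lower with all libraries were among the 12. Hk1, Gpi1, Pgk1, Eno3, Pkm and Ldha were added. DEL-1-Fc replicate 1 was the highest of the DEL-1-Fc libraries for 17 of the 31 genes (54.8%), beside 40.8% of all genes tested. Over all genes tested, calls in either direction came to 3003 without it and 1884 with it. Median log2 fold change of the 31 genes was -0.144 without it and -0.128 with it.

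**Figure D5:**
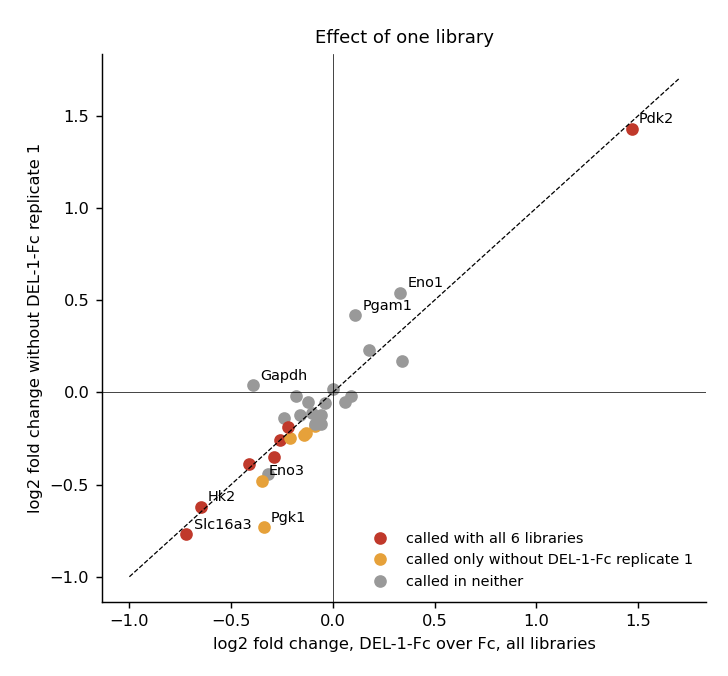
Log2 fold change of each of the 31 genes without DEL-1-Fc replicate 1 (y axis) against that with all 6 libraries (x axis), both DEL-1-Fc over Fc; the dashed line marks equal values. Red points were called with all libraries, orange points without that library alone and grey points in neither. Pgk1 moves most among the orange points, at -0.34 with all libraries and -0.73 without DEL-1-Fc replicate 1.

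Genes of neighbouring pathways were counted in 9 lists, which hold 111 genes and of which 88 were tested. Of these 88, 6 (6.82%) were called higher, beside 6.4% of all genes tested, and 10 (11.4%) lower, beside 6.22%, with a median log2 fold change of 0.0199, beside 0.0079. Other hexose transporters and hexokinases gave 4 calls among 5 genes tested of 15 listed. Of the 5, 2 (40%) were called higher, beside 6.4% of all genes tested, and 2 (40%) lower, beside 6.22%. Slc2a6 had 27.9 ± 2.6 CPM for DEL-1-Fc and 35.1 ± 1.93 CPM for Fc (SD, n = 3 each) and Slc2a8, an intracellular transporter gene, had 8.03 ± 1.17 CPM for DEL-1-Fc and 12.3 ± 0.642 CPM for Fc. Both fell, with log2 fold changes of -0.33 (edgeR adjusted p = 0.0357) for Slc2a6 and -0.62 (0.00993) for Slc2a8. Slc2a9, a urate transporter gene, rose (5.25 ± 0.462 CPM for DEL-1-Fc and 3.18 ± 0.28 CPM for Fc, log2 fold change 0.72, edgeR adjusted p = 0.00729), as did Adpgk, the ADP-dependent glucokinase gene (146.5 ± 7.97 CPM for DEL-1-Fc and 111.8 ± 4.92 CPM for Fc, 0.39, 0.00515). Among 8 other isoforms of glycolytic steps, Ldhd, the D-lactate dehydrogenase gene, rose, with 3.11, 2.62 and 2.18 CPM for DEL-1-Fc and 0.775, 0.849 and 0.82 CPM for Fc (log2 fold change 1.68, SE 0.178, edgeR adjusted p = 0.000514). Every DEL-1-Fc library had over 2 CPM and every Fc library under 1 CPM of it.

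Lists of genes that branch from glycolysis were small and held 0 to 2 calls each. In gluconeogenesis 25% of the genes tested were called lower and 25% higher, beside 6.22% lower and 6.4% higher of all genes tested. The shares called lower were 14.3% for the pyruvate dehydrogenase complex, 11.1% for the NADH shuttles, 10% for glycogen and 0% for the pentose phosphate pathway. Each of these 4 lists had 0% called higher. In gluconeogenesis, Pck2, which encodes the mitochondrial form of the first committed enzyme, fell (19.7 ± 2.59 CPM for DEL-1-Fc and 28 ± 0.18 CPM for Fc, log2 fold change -0.51, edgeR adjusted p = 0.0089) and the pyruvate carboxylase gene Pcx rose (50.6 ± 5.23 CPM for DEL-1-Fc and 33.1 ± 3.68 CPM for Fc, 0.61, 0.0053), among 4 genes tested. Of 10 glycogen genes, Gys1, glycogen synthase, fell (15.8 ± 0.751 CPM for DEL-1-Fc and 23.3 ± 1.94 CPM for Fc, -0.56, edgeR adjusted p = 0.00324). Of 9 genes of the shuttles that carry NADH electrons into mitochondria, the glycerol 3-phosphate dehydrogenase gene Gpd2 fell (48 ± 2.35 CPM for DEL-1-Fc and 70.3 ± 4.36 CPM for Fc, -0.55, edgeR adjusted p = 0.00135). Dlat, a core subunit gene of the pyruvate dehydrogenase complex, fell (-0.23, edgeR adjusted p = 0.0332) among 7 genes tested. In the pentose phosphate pathway edgeR and limma-voom called 0 of 12 genes and DESeq2 called 1, and Pgd alone had an unadjusted p under 0.05 in edgeR, with a log2 fold change of -0.24 and an edgeR adjusted p of 0.081.

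Regulators of glycolytic genes gave 4 falls (25%, beside 6.22% of all genes tested) and 1 rise (6.25%, beside 6.4%) among 16 genes tested. Hif1a, which encodes the oxygen-regulated subunit of HIF-1, had 261.2, 344.1 and 335.7 CPM for DEL-1-Fc, against 410.4, 438.7 and 422.1 CPM for Fc, with DEL-1-Fc replicate 1 the lowest and no overlap. Hif1a fell (log2 fold change -0.43, SE 0.103, edgeR adjusted p = 0.026). Myc, the growth factor-induced regulator that raises glycolytic genes in activated T cells, fell as well, with 880.2, 829.3 and 758.1 CPM for DEL-1-Fc and 1022.9, 1061.7 and 994.5 CPM for Fc (-0.32, SE 0.0765, edgeR adjusted p = 0.0268). Rptor, a subunit gene of the kinase complex mTORC1, fell (51.8 ± 2.48 CPM for DEL-1-Fc and 62.9 ± 1.46 CPM for Fc, -0.28, edgeR adjusted p = 0.0199). Tigar, the gene of a phosphatase for the fructose bisphosphate that activates phosphofructokinase-1, also fell (39.3 ± 0.966 CPM for DEL-1-Fc and 48.6 ± 2.29 CPM for Fc, -0.31, edgeR adjusted p = 0.0147). Txnip, which encodes an inhibitor of glucose uptake, rose, with 82.8, 85.6 and 78 CPM for DEL-1-Fc and 54.8, 64 and 61.6 CPM for Fc (0.45, SE 0.075, edgeR adjusted p = 0.00515). Of the 16 genes called in these lists, 8 kept their call in every alternative fit that tested them, with no minimum set on the fold, namely Slc2a9, Adpgk, Ldhd, Pck2, Pcx, Gys1, Gpd2 and Txnip. The other 8 lost it when a library was left out. For Slc2a8 this was Fc replicate 1 (edgeR adjusted p = 0.0504) or 2 (0.0561). For Hif1a it was Fc replicate 1 (0.0887), 2 (0.105) or 3 (0.0887), with library totals alone also ending the Hif1a call (0.0514). For Tigar it was DEL-1-Fc replicate 3 (0.0517) or Fc replicate 1 (0.089) or 2 (0.0793). Myc lost it without DEL-1-Fc replicate 3 (0.081) or Fc replicate 1 (0.113), 2 (0.131) or 3 (0.0837), and Rptor without DEL-1-Fc replicate 3 (0.0667) or Fc replicate 1 (0.108), 2 (0.0859) or 3 (0.0764). Slc2a6 lost it without DEL-1-Fc replicate 2 (0.0774) or 3 (0.0886) or Fc replicate 1 (0.074), 2 (0.147) or 3 (0.139), and Dlat without DEL-1-Fc replicate 2 (0.0663) or 3 (0.0638) or Fc replicate 1 (0.162), 2 (0.124) or 3 (0.112), or with library totals alone (0.0575).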

How the data were processed

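PolyA RNA of 3 DEL-1-Fc and 3 Fc libraries was measured. Each library has 1 deposited file of raw read counts by gene, made with STAR (version not given) and HTSeq 0.6.0 on GRCm38 (mm10), per the submitters' processing notes. Annotation release, strand setting and the treatment of multi-mapping reads: none is given in the sources used here, so genes with overlapping or near-identical partners are uncertain. Symbols, coordinates and exon lengths came from GENCODE M21 (GRCm38), which matched 37693 of 39179 identifiers, and promoters from RefSeq.

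Counts were tested with edgeR 4.0.16 in R 4.3.3. The filter (minimum count 10, minimum total count 15, by group) kept 14928 genes, TMM factors scaled the libraries, and DEL-1-Fc was set against Fc in the robust quasi-likelihood test. P-values were adjusted by Benjamini-Hochberg over the genes kept. Calls use an adjusted p under 0.05. The common biological coefficient of variation was 14.4%. To obtain the SE, the size of the log2 fold change was divided by the root of the F statistic. Values in CPM use TMM-scaled totals, and values per kilobase divide these by the length of all annotated exons. Family shares were compared by two-sided exact permutation tests. Scripts were tested on simulated data in which 200 genes were changed by known folds. The edgeR test called 32% of the genes changed by a log2 fold of 0.5 in the right direction, and 59.2% of those changed by 1. Of its calls, 9.18% were unchanged genes, and 5 genes were called when no gene was changed. Small changes can thus be missed, and some calls can be false. No pair of replicates agreed within counting noise, since their chi-square was 18.3 or more times its degrees of freedom. With 3 counts as the limit that a count of 0 allows, the floor is 0.049 to 0.0914 CPM, for counting error only.

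The 31 genes, the lists of neighbouring pathways, the cell type markers and the rule for named genes (all 31 genes, and up to 4 called genes of each list, those with the smallest p) were chosen with earlier results of these data known. Myc had the largest p of the called regulators (edgeR unadjusted p = 0.00244) and is named beyond that rule. Alternatives were a filter of 5 CPM in 3 libraries or none, RLE, upper-quartile or no scaling factors, limma-voom 3.58.1, DESeq2 1.42.0, a replicate block, a fit without robust dispersion, omission of each library in turn, thinning to the smallest library and a log2 fold of at least 0.5. Chosen after seeing the data were the addition of pseudogene copies with at least 5% of a gene's 31-base words, the omission of genes with at least 20% shared words, and the alternatives for the lists of neighbouring pathways. A result of 1 list of neighbouring pathways is not reported here, although the counts over all lists include it. Marker genes named singly were chosen after their values were seen.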

Additional observations from a re-analysis of the deposited data

How the results depend on the processing

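Hk2, Pfkp, Slc16a3 and Pdk2 kept their direction and call in every alternative fit that tested them, but Pfkp lost its call where a log2 fold of at least 0.5 was required. Of the other alternative values of the 31 log2 fold changes, 21 lost a call, 10 gained one and 19 changed sign, all of them in Pdha1, Pgam1, Gapdh, Ldhb, Mpc1 and Pfkm, which were never called. The cause was not tested. The number of the 31 genes called lower was 6, but 3 with the replicate number as a block and 2 with a log2 fold of at least 0.5. It was 4 with library totals alone, 5 without robust dispersion or after thinning, and 8 with DESeq2. With no filter it was 6, with Eno3 in place of Aldoa. The number called higher was 1, but 0 with a filter of 5 CPM in 3 libraries, which removes Pdk2. With a library left out, 3 to 12 were called lower and 1 to 2 higher, 901 to 3003 of all genes tested were called, and 3 to 14 genes of the neighbouring pathways were called lower. Libraries with the same number did not deviate together (correlations of 0.016, 0.088 and 0.042), DEL-1-Fc replicate 1 correlated best with Fc replicate 3 (0.038), and the block, with which 1510 genes were called in all, ended the calls of Slc2a1 (adjusted p = 0.0564), Aldoa (0.0851) and Pdk3 (0.0625) and, in neighbouring pathways, Slc2a6 (0.0785) and Dlat (0.0557). With library totals alone, 40.2% of all calls were lower, against 49.3%. The log2 fold change of Pdha1, 0.00, became 0 with RLE factors, limma-voom, the block or copies added, -0.01 with no filter or DESeq2 and -0.02 after thinning, and that of Pgam1, 0.11, became -0.04 with limma-voom and -0.03 with the block. With a library left out, Gapdh ranged from -0.72 to 0.04, Ldhb from -0.02 to 0.16, Mpc1 from -0.05 to 0.19, Pfkm from -0.17 to 0.02, Pgam1 from -0.61 to 0.42 and Pdha1 from -0.05 to 0.02. The family share of Pfkfb2, 0.468 percentage points lower with DEL-1-Fc, ranged from -0.917 to 0.219 points (DEL-1-Fc minus Fc) with a library left out, and was above 0 without DEL-1-Fc replicate 1. Of the 7 called among the 31 genes, Pdk2 had the fewest counts, with 76 counts in its lowest library. With 3 libraries per group, the exact tests of shares cannot pass 0.05.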
